A study of Mus musculus with 68 samples.

Results

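The genes described here are 10 chromatin regulators, 7 genes of the Setd1 and Kmt2 families, named for methylation of histone H3 lysine 4 (Setd1a, Setd1b, Kmt2a, Kmt2b, Kmt2c, Kmt2d and Kmt2e), and 3 demethylase genes (Kdm5a, Kdm5b and Kdm6b), chosen by name out of 24421 reference genes in 68 libraries. Each was found on 1 row of all 68 tables. RNA-seq was performed by Smart-seq2 on cumulus cells (CC), the somatic cells around the oocyte that served as nuclear donors, on somatic cell nuclear transfer (SCNT) embryos made by injecting a CC nucleus into an enucleated oocyte, and on fertilized blastocysts after morpholino (MO) injection. The CC group held 3 libraries. SCNT embryos were sampled at 6 and 14 h post activation (hpa), early and late 2-cell (E2C and L2C), 4-cell (4C, 5 libraries), 8-cell (8C), morula, inner cell mass (ICM) and trophectoderm (TE), with 6 libraries in each group but 4C. The second experiment took the ICM and TE of fertilized blastocysts from a control group and from embryos given a MO against Max, the obligate partner of the MYC transcription factors, or a MO against Mcrs1, which encodes a subunit of several chromatin and transcription complexes, with 2 libraries in each of the 6 groups.

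Oocytes and cumulus cells came from B6D2F1 females, named BDF1 in the labels, and the zygotes of the MO experiment came from C57BL/6j mice in the methods, where females of both strains were 8 to 10 weeks old. The control libraries were labelled untreated, whereas the study describes them as injected with a control MO, at a higher concentration than the MOs against Max and Mcrs1. All SCNT groups shared enucleation, strontium activation and cytochalasin B. Each embryo library was made from 10 blastomeres, and p-values measure the spread between libraries, which the study describes as biological replicates and whose embryos or days the labels do not give. Fertilized embryos were collected at the blastocyst stage only and were not compared with SCNT embryos by a test, because strain and experiment differed too.

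Methylation of H3K4 marks promoters and enhancers. In mammals it is written by complexes named COMPASS, each built around 1 catalytic subunit and a shared core of WDR5, RBBP5, ASH2L and DPY30. SETD1A and SETD1B carry most H3K4 trimethylation, KMT2A (MLL1) and KMT2B (MLL2) work at CpG-rich promoters and developmental genes, and KMT2C (MLL3) and KMT2D (MLL4) monomethylate enhancers. KMT2B is known as the main writer of H3K4me3 in the growing oocyte, and KDM5A and KDM5B, which remove di- and trimethylation, are known to take away the broad H3K4me3 domains of the oocyte at the 2-cell stage. 2 of the 10 names do not match the H3K4 label: KMT2E (MLL5) has no established H3K4 methyltransferase activity, and KDM6B (JMJD3) removes methylation from H3K27.

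All 10 genes make long transcripts. Their longest annotated transcripts span 6487 bases for Setd1a to 19823 bases for Kmt2d, against a median of 2701 bases over all genes. Levels are given in TPM, a read signal scaled by transcript length. In these libraries it covers reference genes besides the loci assembled from the reads, so it is no share of all transcripts. Levels of different genes are set side by side as a description only, because changes moved with transcript length over all genes. The libraries differed in composition and depth. The TPM on reference genes, as a share of that on assembled loci, was 30.4% to 90.9% in SCNT embryos and 85.5% to 94.4% in the MO experiment. This share differed by stage, with 30.4% to 61.8% at L2C and 87.1% to 89.7% in morula. It also differed between control and MO libraries, at 85.5% to 87.0% in control ICM and 89.6% to 90.3% in control TE. Every Max MO and Mcrs1 MO library was at 93.6% or more. The aligned sequence ranged from 1.00 to 5.17 gigabases, and 6177 to 11771 genes reached 1 TPM. The library at 30.4% was L2C replicate 1, and ICM replicates 1 to 3 of SCNT blastocysts had the lowest gene numbers (6177 to 6771). Replicates 1 to 3 and 4 to 6 stood apart for several of the 10 genes and over all genes, and the labels do not call this a batch. Depth per gene cannot be had from TPM alone, and counts were not analysed here.

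The labels were checked against marker genes. The summed level of 9 cumulus and granulosa cell markers was 1628 to 2363 TPM in CC and at most 66.6 TPM in every SCNT library. Oocyte markers (8 genes) summed to 6608 to 16020 TPM at 6 hpa and at most 2.32 TPM in CC. In SCNT blastocysts the 8 ICM markers summed to 230.3 to 495.1 TPM in ICM and 84.0 to 244.1 TPM in TE, and the 8 TE markers to 2196 to 8845 TPM in ICM and 6161 to 17280 TPM in TE, so TE transcripts were present in every ICM library and the TE sums of the 2 tissues overlapped. Fertilized control ICM replicate 1 held 17190 TPM of TE markers and replicate 2 held 644.9 TPM, against 22070 and 20280 TPM in control TE.

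The 10 genes differed widely in level. Averaged over the 53 SCNT libraries, Kdm5b (32.6 TPM) and Kdm6b (31.8 TPM) were the highest, followed by Kmt2c (14.9 TPM) and Kdm5a (10.0 TPM), and the remaining Setd1 and Kmt2 genes averaged 0.77 TPM (Kmt2a) to 5.04 TPM (Kmt2e). The stage of the highest mean was 6 hpa for Kmt2b, Kmt2c, Kmt2d, Setd1a and Kdm6b, ICM for Kmt2a, Kmt2e, Setd1b and Kdm5b, and TE for Kdm5a. Kmt2a stayed below 1 TPM in 39 of 53 SCNT libraries and failed the filter on low values, a mean of at least 1 TPM over the libraries of a fit, so that 9 of the 10 genes were tested in SCNT embryos and against CC and all 10 in the MO experiment.

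**Figure D1:**
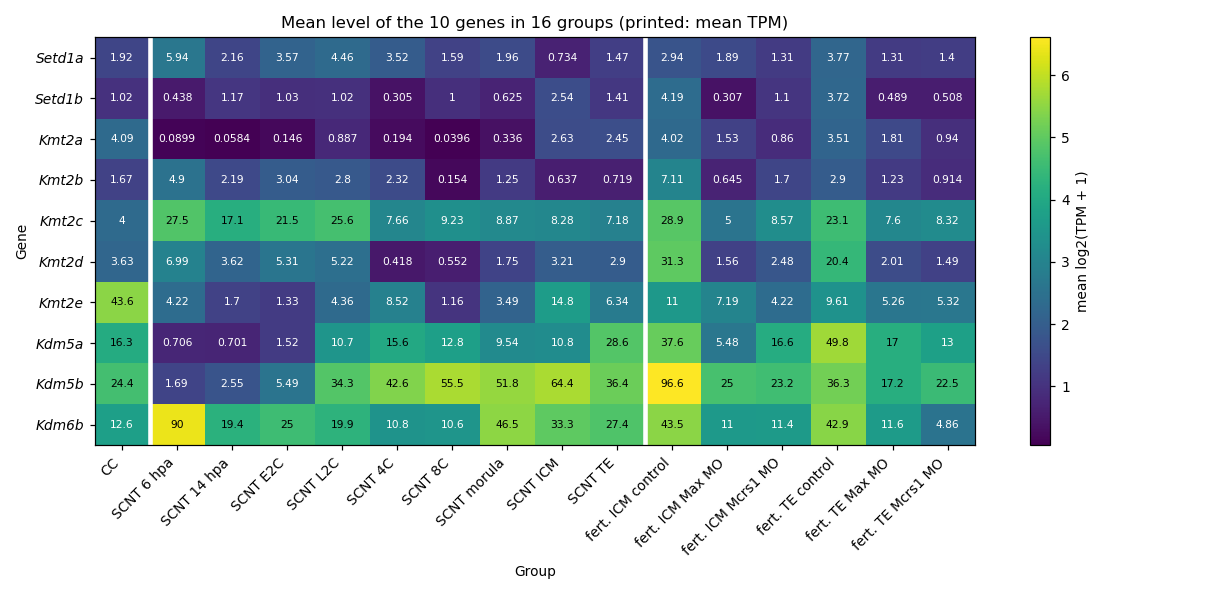
Heatmap of the mean level of the 10 genes (rows) in 16 groups (columns: CC, 9 SCNT stages, 6 groups of fertilized blastocysts). Colour is the mean log2(TPM + 1) and the printed number is the mean TPM. Kdm6b at SCNT 6 hpa (mean 90.0 TPM) and Kdm5b in fertilized control ICM (mean 96.6 TPM) are the 2 brightest cells, and Kmt2a is dark from 6 hpa to 8C.

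SCNT stages were compared in developmental order, each with the one before it. A gene was called changed when its Benjamini-Hochberg adjusted p from limma, fitted on log2(TPM + 1) over all tested genes, was under 0.05 and its change was at least 2-fold. Changes are differences in log2(TPM + 1), which understate the change of genes near or below 1 TPM. In these small pools of cells, fewer cells of a type and less RNA per cell cannot be told apart. The calls for the 9 tested genes were few at every step: 3 from 6 to 14 hpa, 0 to E2C, 3 to L2C, 2 to 4C, 2 to 8C, 2 to morula, 1 to ICM and 1 to TE. Over all 11867 genes the same rule called 11.1%, 5.83%, 34.9%, 38.4%, 19.8%, 12.2%, 24% and 21.8% of genes at these steps. With 9 genes a single call moves their share widely, so counts and shares stand side by side and no difference is read from them. Scaling mattered for the split of all calls: quantile normalization changed 2812 higher and 1329 lower to 2307 and 2486 at L2C (4013 and 1066 with TPM rescaled over reference genes), 1404 and 3155 to 2394 and 2232 at 4C, 1037 and 413 to 680 and 730 in morula, 1063 and 1783 to 1177 and 1290 in ICM and 175 and 459 to 185 and 213 between ICM and TE, and the rescaled TPM changed 729 and 586 to 992 and 487 at 14 hpa and 1370 and 977 to 840 and 1799 at 8C. The replicate sets differed more: with replicates 1 to 3 alone and with 4 to 6 alone the higher and lower calls over all genes were 268 and 485 against 1686 and 430 at 14 hpa, 1012 and 306 against 66 and 665 at E2C, 659 and 2646 against 2209 and 964 in ICM, 790 and 1352 against 2161 and 1079 in TE, and 137 and 837 against 498 and 414 between ICM and TE.

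**Figure D2:**
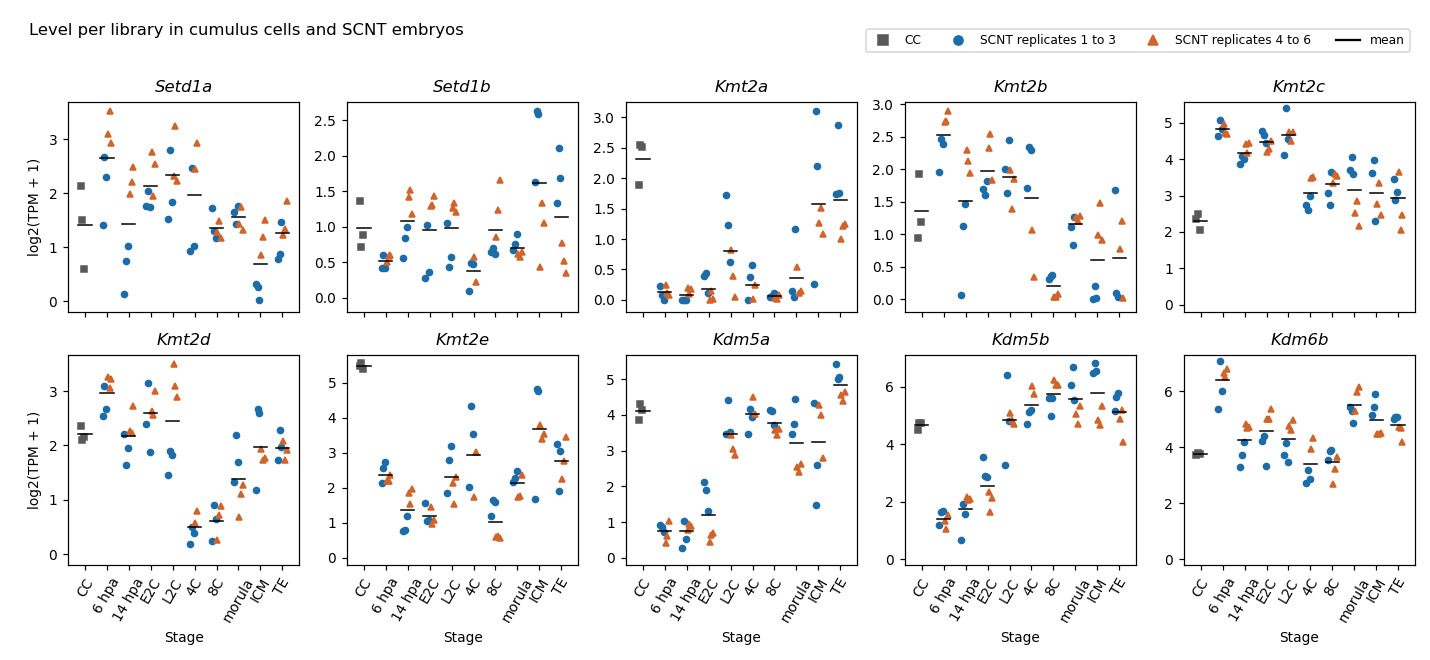
Level of each gene per library, as log2(TPM + 1), in CC (grey squares) and at 9 SCNT stages (blue circles for replicates 1 to 3, orange triangles for replicates 4 to 6, black line for the group mean). Kdm5a and Kdm5b step up between E2C and L2C, while Kmt2d steps down between L2C and 4C and its libraries at these 2 stages do not overlap.

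The SETD1 genes, which encode the catalytic subunits of the complexes for bulk H3K4 trimethylation, were low throughout. Setd1a was at 1.65 to 10.5 TPM at 6 hpa (median 5.99, n = 6) and at 0.0949 to 4.62 TPM at 14 hpa (median 1.99), lower by 1.23 ± 0.36 in log2(TPM + 1) (SE, limma adjusted p = 0.015), although the groups overlapped. In replicates 4 to 6 alone the change was -0.96 and missed the 2-fold limit. From E2C on its stage means lay between 0.73 TPM in ICM and 4.46 TPM at L2C, and no later step was called. Setd1b had its highest stage mean in ICM (0.348 to 5.21 TPM, median 1.82) after 0.492 to 0.869 TPM in morula. The difference was 0.92 ± 0.29 (adjusted p = 0.015), under the 2-fold limit. In ICM, replicates 2 and 3 (5.21 and 5.01 TPM) were the high libraries and replicates 4 to 6 reached at most 1.53 TPM, within a group in which replicates 1 to 3 also had few detected genes.

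Kmt2a and Kmt2b, the trithorax-related pair, followed different courses. Kmt2a was at 0 to 0.183 TPM at 6 hpa and 0.0082 to 0.0793 TPM at 8C, and then at 0.194 to 7.61 TPM in ICM (median 1.62) and 1.01 to 6.31 TPM in TE (median 1.85). It was not tested under the filter. When every gene detected in at least 1 library was kept, Kmt2a was higher in ICM than in morula by 1.21 ± 0.28 (limma adjusted p = 0.0015) and in TE than in morula by 1.28 ± 0.28 (adjusted p = 0.00081). The TE libraries lay between 1.01 and 6.31 TPM and the morula libraries between 0.0347 and 1.23 TPM, and a single morula library, replicate 3, entered the TE range.

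Kmt2b, by contrast, was highest at 6 hpa and was called lower at 14 hpa and at 8C. It was at 2.87 to 6.45 TPM at 6 hpa (median 5.08) and at 0.044 to 3.93 TPM at 14 hpa (median 2.31), lower by 1.02 ± 0.33 (adjusted p = 0.028), with overlapping groups. This call was lost with a pseudocount of 0.1 (adjusted p = 0.17), with TPM rescaled over reference genes (0.066) and in either replicate set alone (0.054 in replicates 1 to 3, and a change of -0.67 with 0.11 in replicates 4 to 6). At 4C its 5 libraries spread from 0.272 to 4.06 TPM, and at 8C all 6 lay between 0.0259 and 0.292 TPM, lower than at 4C by 1.35 ± 0.34 (adjusted p = 0.0032). The lowest 4C library was inside the 8C range, and in replicates 4 to 6 alone the change was -0.65 and not called (adjusted p = 0.16). In morula the 6 libraries were at 0.784 to 1.42 TPM, with none in the 8C range, and the difference from 8C was 0.96 ± 0.33 (adjusted p = 0.042), just under 2-fold. In ICM and TE the medians were 0.517 and 0.385 TPM, with 3 of 12 libraries above 1 TPM.

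Kmt2c and Kmt2d, the enhancer monomethyltransferases, were at their highest before 4C and were both called lower at the same step. Kmt2c was the highest of the Setd1 and Kmt2 genes from 6 hpa to L2C. It lay at 23.9 to 33.0 TPM at 6 hpa (median 26.5) and 13.5 to 20.7 TPM at 14 hpa (median 16.4), 2 groups that did not overlap, yet the change of -0.67 ± 0.30 was not called (adjusted p = 0.16). At L2C it was at 16.5 to 41.7 TPM (median 24.0) and at 4C at 5.13, 5.63, 6.87, 10.3 and 10.4 TPM. All 4C libraries lay below all L2C libraries, and the change was -1.61 ± 0.31 (adjusted p = 3.3e-05). From 8C to TE the stage means stayed between 7.18 and 9.23 TPM with no further call.

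Kmt2d stood at 1.73 to 10.4 TPM at L2C (median 4.57) and at 0.144, 0.313, 0.419, 0.484 and 0.731 TPM at 4C. The change was -1.95 ± 0.31 (adjusted p = 9.1e-07), and no 4C library reached the L2C range. At 8C it stayed at 0.186 to 0.868 TPM, and in morula, ICM and TE the medians were 1.46, 2.61 and 2.83 TPM, with no single step called. Both calls at 4C were kept without L2C replicate 1, within replicates 1 to 3 and within replicates 4 to 6. The step from L2C to 4C also moved with transcript length over all genes: 21.7% of tested genes under 2 kb and 37.7% of those of 6 kb or more were called lower, with median changes of -0.01 and -0.73. Relative to the lowess trend on length, Kmt2c was at -0.78 and Kmt2d at -1.09. The part that length had in this step was not tested. The share of reference genes in the TPM was 30.4% to 61.8% at L2C and 44.0% to 75.6% at 4C.

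Kmt2e was the member with the most calls along the SCNT series, 4 in all, higher at L2C, lower at 8C, and higher in morula and in ICM. It rose from E2C (0.942 to 1.95 TPM, median 1.13) to L2C (1.93 to 8.21 TPM, median 3.69) by 1.11 ± 0.39 (adjusted p = 0.018), a call that did not hold after quantile normalization (0.76, adjusted p = 0.078), in replicates 1 to 3 alone (1.39, adjusted p = 0.14) or in replicates 4 to 6 alone (0.83). At 4C it was at 2.35, 3.03, 7.15, 10.7 and 19.4 TPM, the widest spread of the 10 genes at that stage (SD 1.08 in log2(TPM + 1)), and at 8C at 0.479 to 2.15 TPM, lower by 1.90 ± 0.40 (adjusted p = 0.00048). Morula libraries were at 2.35 to 4.57 TPM, all above the 8C libraries, a difference of 1.10 ± 0.39 that only just passed (adjusted p = 0.048) and did not pass without the filter on low values (adjusted p = 0.073), with TPM rescaled over reference genes (0.086), in replicates 1 to 3 alone (0.52) or after quantile normalization (change 0.69). ICM libraries were at 2.23 to 27.1 TPM (median 11.8), higher than morula by 1.53 ± 0.39 (adjusted p = 0.0021), and 5 of 6 lay above every morula library. The sixth, ICM replicate 1, was at 2.23 TPM. In replicates 1 to 3 alone the changes to 8C and to ICM were -1.82 and 1.44 and were not called (adjusted p = 0.060 and 0.10).

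Of the erasers, Kdm5a and Kdm5b were low in the first cell cycle and appeared at the 2-cell stage. Kdm5a was at 0.33 to 1.04 TPM at 6 hpa, 0.202 to 1.05 TPM at 14 hpa and 0.371 to 3.35 TPM at E2C. At L2C it was at 6.33 to 20.4 TPM (median 9.93), above every E2C library, a rise of 2.27 ± 0.37 (adjusted p = 1.5e-06). Kdm5b went from 2.1 to 10.7 TPM at E2C (median 5.14) to 8.84 to 83.9 TPM at L2C (median 27.5), a rise of 2.30 ± 0.40 (adjusted p = 5.3e-06). The only overlap came from L2C replicate 1, at 8.84 TPM, which is the library with 30.4% of its TPM on reference genes. Without it the rise was 2.61. Both calls held within replicates 1 to 3 (2.03 and 1.74) and within replicates 4 to 6 (2.52 and 2.86). At this step 23.7% of all tested genes were called higher.

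After L2C the 2 genes parted. Kdm5b had stage means of 34.3 to 64.4 TPM with no called step over all replicates, but the replicate sets moved in opposite directions after 8C. Its means at 8C, morula and ICM were 42.4, 71.2 and 98.3 TPM in replicates 1 to 3. In replicates 4 to 6 they were 68.65, 32.4 and 30.5 TPM. The level of Kdm5b in ICM was 89.6, 112 and 93.4 TPM in replicates 1 to 3 and 27.5, 24.4 and 39.5 TPM in replicates 4 to 6. Kdm5a was at 4.31 to 20.6 TPM in morula (median 7.58), at 1.76 to 19.1 TPM in ICM (median 10.5) and at 20.001 to 42.0 TPM in TE (median 27.3). TE was above morula by 1.64 ± 0.37 (adjusted p = 0.00052), and the highest morula library lay just inside the TE range. In replicates 1 to 3 alone the difference was 1.29 and not called (adjusted p = 0.092). From 8C to morula the mean of Kdm5a went from 14.95 to 14.3 TPM in replicates 1 to 3. In replicates 4 to 6 it went from 10.7 to 4.78 TPM.

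Kdm6b, the H3K27 demethylase, was the highest of the 10 genes at 6 hpa, at 40.3 to 135 TPM (median 95.7). At 14 hpa it was at 8.93 to 27.7 TPM (median 20.9), and every library lay below every 6 hpa library (change -2.16 ± 0.35, adjusted p = 5.8e-06). Over all genes 4.94% were called lower at this step, and for the 9 tested members the count was 3 (Kdm6b, Setd1a and Kmt2b). The 8 oocyte markers also moved at this step, with 5 of 8 called lower and sums of 6608 to 16020 TPM at 6 hpa and 1597 to 5478 TPM at 14 hpa. Whether maternal RNA as a whole had a part in the change of Kdm6b was not tested. At 4C and 8C its medians were 8.23 and 11.2 TPM, and in morula its libraries rose to 28.1 to 70.4 TPM (median 40.4), above all 8C libraries (5.45 to 13.8 TPM) by 2.02 ± 0.35 (adjusted p = 3.7e-05). At this step 8.74% of all genes were called higher. ICM and TE both had a median of 28.3 TPM, and neither change from morula was called (-0.51 and -0.70, limma adjusted p = 0.30 and 0.14). Within replicates 4 to 6 alone a drop was called in both (changes -1.32 and -1.26). In replicates 1 to 3 the means were 36.3 TPM in morula, 45.2 TPM in ICM and 32.3 TPM in TE.

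In the step from 14 hpa to E2C none of the 9 tested genes was called by limma, and 1, Kdm5b, was under 0.05 before adjustment (0.82 ± 0.40, limma adjusted p = 0.26). Within replicates 1 to 3 alone Kdm5b was called (1.72, adjusted p = 0.037).

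**Figure D3:**
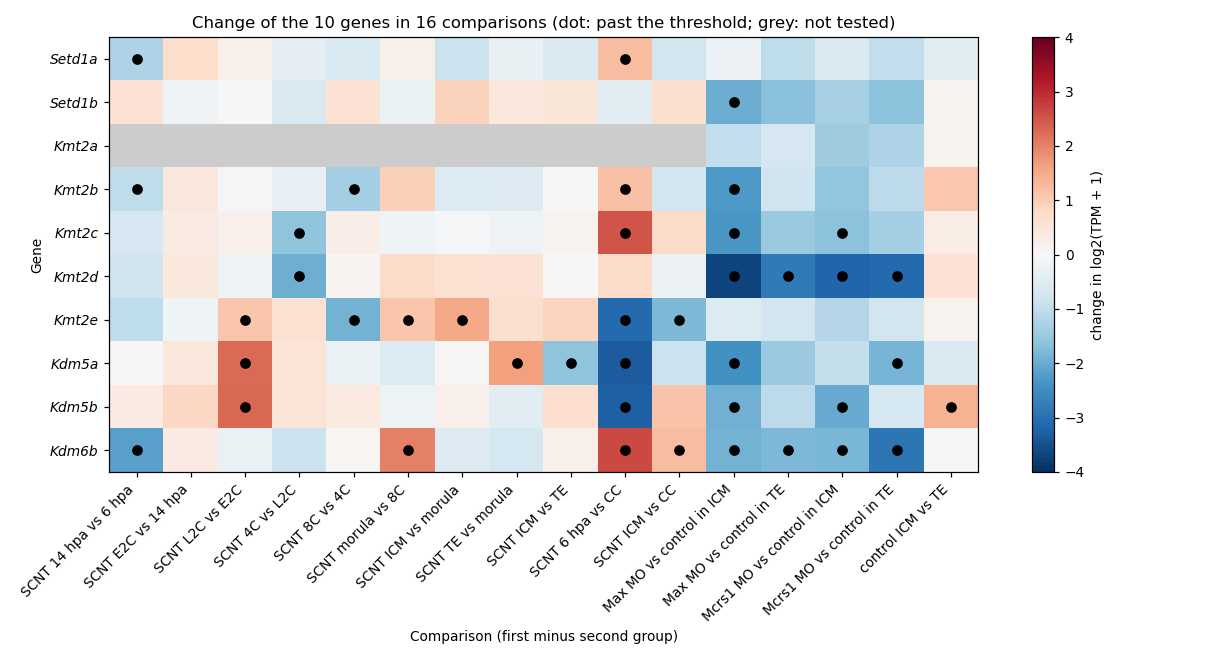
Heatmap of the change in log2(TPM + 1) of the 10 genes (rows) in 16 comparisons (columns, first group minus second). Red is higher and blue lower in the first group, a dot marks a change past the threshold and grey marks Kmt2a where it was not tested. The 4 columns of MO against control are blue for all 10 genes, with 7, 2, 4 and 3 dots.

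Between the lineages of the SCNT blastocyst only Kdm5a was called, among 9 tested genes against 5.34% of all genes. Its ICM libraries (1.76, 5.0, 5.93, 15.0, 18.2 and 19.1 TPM) all lay below its TE libraries (20.001, 22.6, 23.7, 30.9, 32.5 and 42.0 TPM), with a change of -1.60 ± 0.37 (adjusted p = 0.0041). Of the lineage markers, 2 of 8 TE markers were called lower and 3 of 6 tested ICM markers higher in ICM. With ICM replicates 4 to 6 alone in the ICM group the change was -1.16 and no longer called (adjusted p = 0.073), and within replicates 4 to 6 of both tissues it was -0.84 (adjusted p = 0.078). In fertilized control embryos Kdm5a was at 56.2 and 19.1 TPM in ICM and 53.3 and 46.3 TPM in TE and was not called (-0.58 ± 0.49, adjusted p = 0.53). The ICM library at 56.2 TPM was replicate 1, which held 17190 TPM of TE markers. In the same libraries Kdm5b was at 94.0 and 99.1 TPM in ICM and 33.6 and 39.0 TPM in TE, and was the one member called of 10 (1.39 ± 0.32, adjusted p = 0.047, against 2.92% of all genes). Without ICM control replicate 1, 2 or TE control replicate 1, 2 the genes called were 2283, 270, 2 and 101 in place of 328. The call of Kdm5b did not hold with a pseudocount of 0.1 or without the filter on low values (adjusted p = 0.052 and 0.057), nor without ICM control replicate 2 or either TE control library (adjusted p = 0.082 to 0.22). In SCNT embryos the same difference was 0.66 ± 0.40 and was not called (adjusted p = 0.40).

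The donor cells differed from the 1-cell SCNT embryo at 7 of the 9 tested genes, where 61.4% of all tested genes were called. Against CC, 6 hpa embryos had 4 of 9 tested genes called higher and 3 lower, where the rule called 25.8% of all 12084 genes higher and 35.6% lower. The enucleated oocyte carries maternal RNA, and the 8 oocyte markers were all called higher and all 7 tested cumulus markers lower. Lower at 6 hpa were Kdm5a (13.4, 18.8 and 16.6 TPM in CC, at most 1.04 TPM at 6 hpa, change -3.34 ± 0.44), Kdm5b (21.5, 25.9 and 25.8 TPM in CC, at most 2.17 TPM at 6 hpa, change -3.25 ± 0.47) and Kmt2e (43.6, 46.0 and 41.1 TPM in CC, 3.45 to 5.68 TPM at 6 hpa, change -3.11 ± 0.46), each with an adjusted p of at most 6.2e-08. Higher were Kdm6b (12.2, 12.8 and 12.6 TPM in CC, 2.65 ± 0.41, adjusted p = 1.9e-07), Kmt2c (4.16, 4.67 and 3.18 TPM in CC, 2.51 ± 0.36, adjusted p = 2.3e-08), Setd1a (1.24 ± 0.45, adjusted p = 0.014) and Kmt2b (1.18 ± 0.40, adjusted p = 0.0083). For 8 of the 9 tested genes, all but Setd1a, the CC and 6 hpa libraries did not overlap, as for 70.4% of all tested genes. Kmt2a, which failed the filter and was not tested, was at 2.70, 4.87 and 4.71 TPM in CC and at most 0.183 TPM at 6 hpa. Setd1a lost its call without CC replicate 3 (0.83, adjusted p = 0.16) and Kmt2b without CC replicate 1 (0.97, adjusted p = 0.067) or with a pseudocount of 0.1 (adjusted p = 0.10).

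At the end of the series SCNT ICM differed from CC at 2 of 9 genes, against 37.9% of all genes. Kmt2e remained below its CC level in ICM (at most 27.1 TPM, change -1.81 ± 0.46, adjusted p = 0.0013). Kdm6b was above it, at 21.03 to 58.3 TPM (1.23 ± 0.41, adjusted p = 0.014), but with ICM replicates 4 to 6 alone its change was 0.72 and not called (adjusted p = 0.22), nor was it after quantile normalization (0.92, adjusted p = 0.062). Kdm5a and Kdm5b, which had been far below CC at 6 hpa, differed from CC by -0.86 ± 0.44 and 1.12 ± 0.47 in ICM and were not called (adjusted p = 0.12 and 0.054). The difference between ICM and CC moved with transcript length over all genes. Of tested genes under 2 kb 16.8% were called lower, and of those of 6 kb or more 33.6%. Relative to the lowess trend on length, Kmt2e was at -1.28, Kdm6b at 1.72, Kdm5a at -0.25 and Kdm5b at 1.715. The part of length in this comparison was not tested.

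The rest of the pathway was followed in a list of 26 genes that holds the 4 core subunits of COMPASS, 11 subunits of single complexes, and other H3K4 methyltransferases (5), H3K4 demethylases (4) and H3K27 demethylases (2). In SCNT embryos 22 were tested. Only Bod1l, which encodes a protein of the SETD1 complexes, was called from 6 to 14 hpa (-1.57 ± 0.43, adjusted p = 0.0073), and none to E2C. To L2C, 3 were called higher and 3 lower. Ash2l, a core subunit, rose by 2.23 ± 0.46 (adjusted p = 9.8e-05) with Kdm5a and Kdm5b, whereas the core subunits Dpy30 and Rbbp5 were lower by 1.61 and 1.30 (SE 0.23 and 0.52). To 4C, 7 were called lower and 1 higher, with a median of -0.65 against -0.33 over all genes. Among them were Ncoa6, a subunit of the KMT2C and KMT2D complexes (-2.26 ± 0.35), Psip1 (-3.90 ± 0.43), which tethers menin complexes to chromatin, Bod1 (-2.996 ± 0.44) and the demethylase Kdm1b (-2.01 ± 0.47). Ash2l was also called lower to 4C (-1.36 ± 0.48, adjusted p = 0.020). It was then called higher from 4C to 8C (2.42 ± 0.48, adjusted p = 0.00021) and to morula (1.62 ± 0.46, adjusted p = 0.013). Core subunits thus did not share 1 course.

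Each of the 9 tested members was also described by the genes most like it, with the members left out, as Pearson's r of log2(TPM + 1) over the 53 SCNT libraries. Kmt2a was not in this fit and has no such value. These libraries share stages and library features, so that r is a description only. Kdm5b was closest to Map1lc3b, Syncrip and Ppat (r = 0.953, 0.952 and 0.952) and Kdm5a to Mier1 and Pet100 (0.909 and 0.908). Kmt2d was closest to Map2k4 (0.874) and Kmt2c to Usp9x (0.873). For Setd1b the closest gene, Ybx3, reached only 0.666, and for Kmt2e, Aplp2 reached 0.778. Among these 9 members the highest r was 0.824, between Kdm5a and Kdm5b, and the lowest -0.625, between Kmt2b and Kdm5b.

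The MO experiment set fertilized blastocysts given Max or Mcrs1 MO beside the control group. The study reports that either MO strongly impeded blastocyst formation at a higher concentration than the one used for these libraries. Whether arrest or delay had a part in the changes was not tested. The targeted transcripts were read first. Max was at 38.0 and 8.42 TPM in control ICM and 6.82 and 0.443 TPM after Max MO, and at 34.5 and 28.5 TPM in control TE and 16.3 and 8.68 TPM after Max MO. Mcrs1 was at 253.3 and 310.1 TPM in control ICM and 86.8 and 73.4 TPM after Mcrs1 MO, and at 218.7 and 294.0 TPM in control TE and 41.1 and 45.5 TPM after Mcrs1 MO. After the other morpholino, Max was at 14.4 and 9.25 TPM in ICM and 17.6 and 15.7 TPM in TE. The lower of these TE values was under the 16.3 TPM of 1 TE library after Max MO. Mcrs1 after Max MO was at 218.2 and 242.3 TPM in ICM and 206.3 and 193.7 TPM in TE. A morpholino can block translation or splicing without lowering the transcript, so these levels are no measure of protein.

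All 10 genes had lower means after either morpholino in both lineages, except that with quantile normalization Kmt2e was at 0.07 on the log2 scale after Max MO in ICM. In ICM, 7 of 10 were called lower after Max MO (Kmt2b, Kmt2c, Kmt2d, Setd1b, Kdm5a, Kdm5b and Kdm6b) and 4 after Mcrs1 MO (Kmt2c, Kmt2d, Kdm5b and Kdm6b), where 15.1% and 5.21% of all 11219 tested genes were called lower. Among tested genes with transcripts of 6 kb or more, as in all 10 members, the shares were 34.6% and 11.2%. In TE, 2 were called lower after Max MO (Kmt2d and Kdm6b) and 3 after Mcrs1 MO (Kmt2d, Kdm5a and Kdm6b), against 1.45% and 3.31% of all tested genes and 1.45% and 6.21% of those of 6 kb or more. No member was called higher in any of these 4 comparisons. Control and MO libraries also differed in the share of reference genes in the TPM, at most 90.3% against at least 93.6%. The part of this share in the changes was not tested. Quantile normalization moved the split of all calls after Max MO in ICM from 970 higher and 1689 lower to 1134 and 1021, in TE from 117 and 163 to 91 and 82, and after Mcrs1 MO in TE from 199 and 371 to 173 and 156, and the counts of members lower became 7 and 1 after Max MO and 3 and 2 after Mcrs1 MO in ICM and TE. These counts rested on single libraries: leaving out 1 of the libraries compared gave 1 to 2 genes lower after Max MO in TE in place of 163, and 5 to 62 after Mcrs1 MO in TE in place of 371. After Mcrs1 MO in ICM it gave 28 and 116 without Mcrs1 MO replicate 1 or 2 and 1163 and 641 without control replicate 1 or 2, in place of 584, and after Max MO in ICM 924 to 2104. With only the 6 libraries of a lineage in the fit, the genes lower were 564 and 2 in ICM and 733 and 1167 in TE after Max and Mcrs1 MO. In that fit Kmt2b, Setd1b and Kdm5a lost their Max MO calls in ICM (adjusted p = 0.071, 0.10 and 0.054), and Kmt2c, Kmt2d, Kdm5b and Kdm6b their Mcrs1 MO calls in ICM (0.15, 0.082, 0.067 and 0.098). The 2 morpholinos were read against the same 2 control libraries in each lineage, so their values are given side by side and not as independent results.

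**Figure D4:**
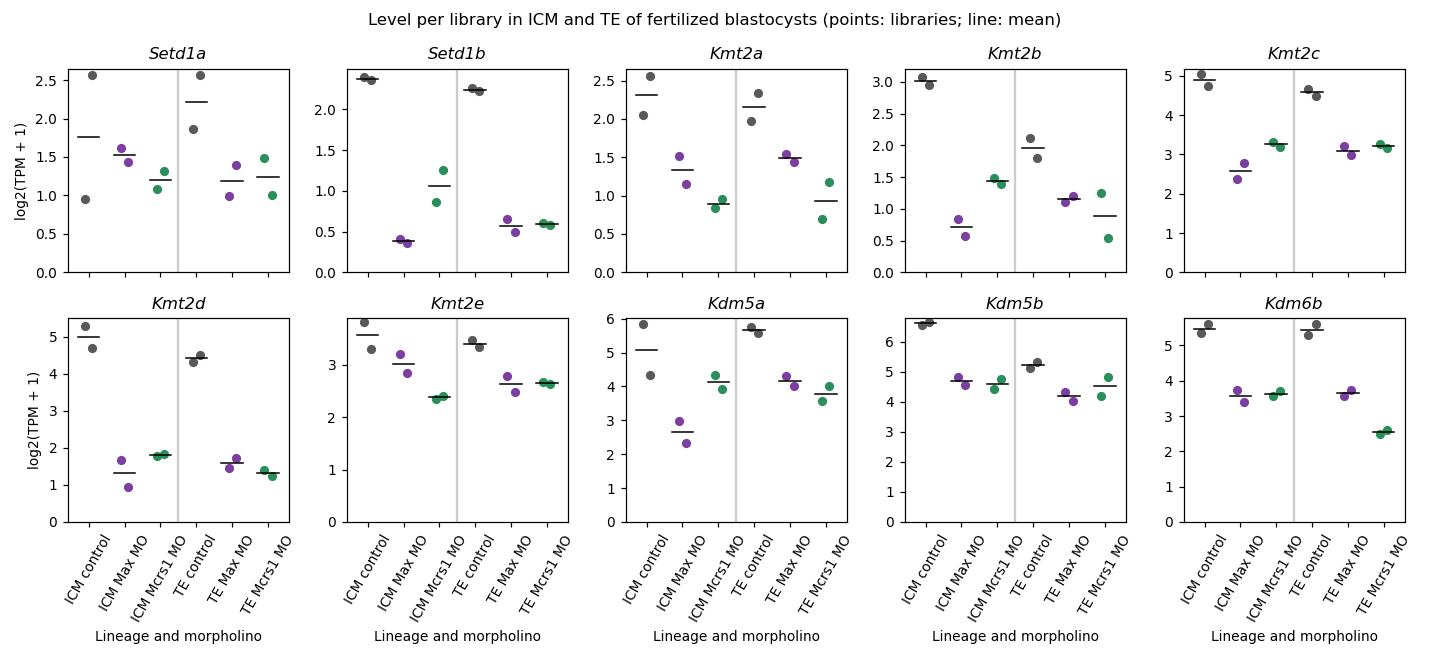
Level of each gene per library, as log2(TPM + 1), in ICM and TE of fertilized blastocysts (grey for control, purple for Max MO, green for Mcrs1 MO, 2 points per group, black line for the mean). Kmt2d lies above 4 in every control library and below 2 in every MO library, and Setd1a in ICM is the gene whose control libraries spread around the MO libraries.

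Kmt2d had the largest change of the 10 genes in 4 of 4 comparisons. It was at 37.8 and 24.8 TPM in control ICM, at 2.20 and 0.929 TPM after Max MO and at 2.42 and 2.55 TPM after Mcrs1 MO. In TE it was at 18.9 and 21.9 TPM in the control, 1.72 and 2.31 TPM after Max MO and 1.62 and 1.36 TPM after Mcrs1 MO. Every control library lay far above all 8 MO libraries. The changes were -3.67 ± 0.50 and -3.18 ± 0.50 in ICM (limma adjusted p = 0.0011 and 0.0063) and -2.83 ± 0.50 and -3.10 ± 0.50 in TE (adjusted p = 0.025 and 0.011). The TE calls did not hold when any 1 of the libraries compared was left out (adjusted p = 0.086 to 0.18 for Max MO and 0.052 to 0.12 for Mcrs1 MO), nor the Mcrs1 MO call in ICM without Mcrs1 MO replicate 1 (adjusted p = 0.055), while the changes stayed at -2.69 or below.

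Its partner Kmt2c was at 32.2 and 25.6 TPM in control ICM, 4.18 and 5.82 TPM after Max MO and 9.01 and 8.13 TPM after Mcrs1 MO, with changes of -2.32 ± 0.39 (adjusted p = 0.0026) and -1.64 ± 0.39 (adjusted p = 0.026). The second call was lost without either Mcrs1 MO library (adjusted p = 0.11 and 0.10) and after quantile normalization (0.054). In TE it was at 24.6 and 21.5 TPM in the control, 8.34 and 6.86 TPM after Max MO and 8.61 and 8.04 TPM after Mcrs1 MO. The changes in TE of -1.49 ± 0.39 and -1.36 ± 0.39 were not called (adjusted p = 0.067 and 0.064).

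Among the other Setd1 and Kmt2 genes Kmt2b was at 7.47 and 6.74 TPM in control ICM and 0.799 and 0.491 TPM after Max MO (-2.31 ± 0.52, adjusted p = 0.0099), and Setd1b at 4.27 and 4.12 TPM and 0.331 and 0.283 TPM (-1.99 ± 0.51, adjusted p = 0.016). The call of Kmt2b was lost without Max MO replicate 2 (adjusted p = 0.053) and that of Setd1b without either Max MO library (adjusted p = 0.061 and 0.065). Setd1b was also near 4 TPM in control TE (3.78 and 3.67 TPM) and at most 0.575 TPM in both TE knockdowns, but those changes were not called (adjusted p = 0.098 and 0.078). The 2 genes lie at levels where the pseudocount of 1 holds down the change. Kmt2a (control 2.94 to 4.91 TPM, MO 0.613 to 1.91 TPM over both lineages) and Kmt2e (control 8.88 to 13.1 TPM, MO 4.12 to 8.21 TPM over both lineages) were called nowhere. Setd1a was at 0.944 and 4.93 TPM in control ICM, around the values of 1.11 to 2.07 TPM in the 4 ICM MO libraries.

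Of the erasers, Kdm6b was called in 4 of 4 comparisons. It was at 39.8 and 47.3 TPM in control ICM, 12.4 and 9.56 TPM after Max MO and 10.8 and 12.1 TPM after Mcrs1 MO (changes -1.90 and -1.84, SE 0.35 for both, adjusted p = 0.0040 and 0.012). In TE it was at 37.9 and 47.9 TPM, 10.8 and 12.3 TPM and 4.62 and 5.11 TPM (changes -1.80 and -2.90, SE 0.35 for both, adjusted p = 0.032 and 0.0041). After Max MO in TE the call was lost without any 1 of the 4 libraries (adjusted p = 0.13 to 0.19) and after quantile normalization (0.059), after Mcrs1 MO in ICM without either MO library (0.085 and 0.058) and in TE without Mcrs1 MO replicate 2 (0.063). Kdm5b was at 94.0 and 99.1 TPM in control ICM, 27.5 and 22.46 TPM after Max MO and 20.4 and 26.0 TPM after Mcrs1 MO (-1.91 ± 0.32 and -2.02 ± 0.32, adjusted p = 0.0025 and 0.0064), the second call being lost without Mcrs1 MO replicate 1 (adjusted p = 0.068). In TE it was at 33.6 and 39.0 TPM, 19.1 and 15.3 TPM and 17.4 and 27.6 TPM and was not called (adjusted p = 0.10 and 0.21). After either morpholino its ICM level was within the range of the control and MO TE libraries (15.3 to 39.0 TPM).

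Kdm5a was at 56.2 and 19.1 TPM in control ICM, 6.92 and 4.04 TPM after Max MO (-2.43 ± 0.49, adjusted p = 0.0060) and 19.1 and 14.0 TPM after Mcrs1 MO, where it was not called (-0.96 ± 0.49, adjusted p = 0.22). In TE it was at 53.3 and 46.3 TPM, 18.7 and 15.3 TPM after Max MO (-1.499 ± 0.49, adjusted p = 0.12) and 10.9 and 15.1 TPM after Mcrs1 MO (-1.87 ± 0.49, adjusted p = 0.049, and 0.14 to 0.24 without any 1 of the 4 libraries). That call was also lost with a pseudocount of 0.1, without the filter on low values and after quantile normalization (adjusted p = 0.058, 0.096 and 0.11). The high control ICM library is again replicate 1 with 17190 TPM of TE markers. TE markers summed to 2927 and 6276 TPM in ICM after Max MO and 12420 and 8783 TPM after Mcrs1 MO, and ICM markers to 828.1 and 950.9 TPM in control ICM, 808.8 and 675.3 TPM after Max MO and 341.6 and 638.3 TPM after Mcrs1 MO. The part of lineage make-up in the ICM results was not tested.

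The difference in response between ICM and TE was tested itself, by an interaction term, and no member was called by limma for either morpholino. Before adjustment 0 members for Max MO and 1 for Mcrs1 MO were under 0.05, the latter being Kdm5b (-1.32 ± 0.45, limma adjusted p = 0.49). Over all 11219 genes no interaction was called either (0%), while 1473 genes for Max MO and 972 for Mcrs1 MO had an unadjusted p under 0.05. Without ICM control replicate 1, the library with 17190 TPM of TE markers, 507 interactions were called for Max MO and 840 for Mcrs1 MO, without ICM control replicate 2 402 and 14, and without the filter on low values 45 and 24, with no member among them. The members called in 1 lineage only are therefore not shown to differ between lineages.

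Transcript length moved with these changes over the whole transcriptome. After Max MO in ICM, 3.28% of tested genes under 2 kb were called lower, 11.9% at 2 to 4 kb, 25% at 4 to 6 kb and 34.6% at 6 kb or more, with median changes of 0.64, -0.20, -0.77 and -1.15. After Mcrs1 MO in ICM the shares called lower were 2.06% and 11.2% in the shortest and longest bin, and in TE 1.54% and 6.21% after Mcrs1 MO and 0.908% and 1.45% after Max MO. The median change in the longest bin, where all 10 genes lie, was -0.66 (Max MO, TE), -0.64 (Mcrs1 MO, ICM) and -0.87 (Mcrs1 MO, TE). The medians of the 10 genes were -1.95, -1.26, -1.499 and -1.30 in the order Max MO in ICM and TE and Mcrs1 MO in ICM and TE, against -0.21, -0.19, -0.05 and -0.24 over all tested genes.

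**Figure D5:**
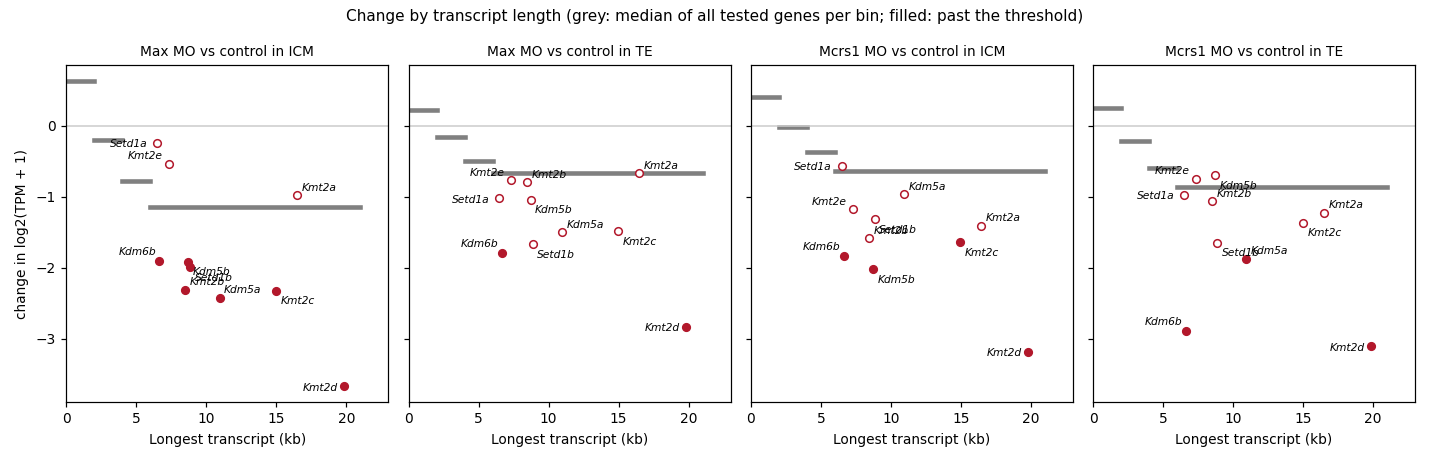
Change in log2(TPM + 1) after Max or Mcrs1 MO in ICM and TE against the length of the longest annotated transcript in kb. Grey bars are the medians of all tested genes in 4 length bins (the last holds all genes of 6 kb or more) and points are the 10 genes, filled where past the threshold. In all 4 panels the grey bars step down with length, and Kmt2d is far below the last bar while Kmt2a and Kmt2e lie nearer to it.

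Measured against the lowess trend on length, the medians of the 10 genes were -0.86, -0.56, -0.64 and -0.28 in the same order. Kmt2d kept -2.13, -1.97, -2.10 and -1.99, and Kdm6b -0.89, -1.19, -1.27 and -2.14. Kmt2c kept -0.90, -0.68, -0.67 and -0.33. Kmt2a, whose longest transcript of 16470 bases is close in length to those of Kmt2c (14967 bases) and Kmt2d, was at 0.49, 0.15, -0.41 and -0.17. Kdm5b was at -0.77, -0.37, -1.32 and 0.15, and Setd1a at 0.76, -0.43, -0.02 and -0.23. These residuals carry no test. The part of length, or of RNA quality that may come with it, in the changes of the members was not tested.

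Of the other 26 pathway genes 25 were tested in the MO experiment. After Max MO in ICM 5 were called lower and 1 higher, with a median of -0.01. The largest changes were in Kdm6a, the X-linked relative of Kdm6b (-2.48 ± 0.51, adjusted p = 0.0062), Kdm5c, an H3K4 demethylase (-2.35 ± 0.59, adjusted p = 0.015), Men1, which encodes menin of the KMT2A and KMT2B complexes (-2.32 ± 0.63, adjusted p = 0.021), and Hcfc1 (-1.81 ± 0.45, adjusted p = 0.014), which encodes a shared subunit. After Mcrs1 MO in ICM 3 were called lower: Cxxc1, the CpG-binding subunit of the SETD1 complexes (-2.58 ± 0.59, adjusted p = 0.022), Kdm5c (-2.13 ± 0.59) and Hcfc1 (-1.93 ± 0.45). In TE none was called after Max MO and 2 were called lower after Mcrs1 MO, Smyd1 (-2.59 ± 0.65) and Kdm1a (-1.66 ± 0.36). Of the 4 core subunits of COMPASS only Dpy30 was called in these comparisons, higher after Max MO in ICM (1.04 ± 0.28, adjusted p = 0.020), and it is named here after its value was seen.

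Because MAX is known to bind the E-box CACGTG with MYC proteins, promoter sequences are shown for the 3 genes called in ICM after both morpholinos that have an entry in RefSeq's promoter table (GRCm38.p6). Entries were found for 5 of the 10 genes (Kmt2a, Kmt2c, Kmt2d, Kdm5b and Setd1a), and Kmt2b, Kmt2e, Setd1b, Kdm5a and Kdm6b had none. The 250 bases before the annotated start are printed in the gene's direction, with GGGCGG, the GC box letters, in capitals on either strand (CCGCCC on the other). The Kdm5b window is chr1:134559928-134560177 on the plus strand, the Kmt2c window chr5:25498784-25499033 on the minus strand and the Kmt2d window chr15:98871206-98871455 on the minus strand.
Kdm5b: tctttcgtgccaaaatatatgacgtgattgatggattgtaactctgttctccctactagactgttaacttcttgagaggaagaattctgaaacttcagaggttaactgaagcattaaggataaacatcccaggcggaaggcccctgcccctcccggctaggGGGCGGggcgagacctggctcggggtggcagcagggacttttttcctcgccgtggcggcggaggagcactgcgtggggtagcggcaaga
Kmt2c: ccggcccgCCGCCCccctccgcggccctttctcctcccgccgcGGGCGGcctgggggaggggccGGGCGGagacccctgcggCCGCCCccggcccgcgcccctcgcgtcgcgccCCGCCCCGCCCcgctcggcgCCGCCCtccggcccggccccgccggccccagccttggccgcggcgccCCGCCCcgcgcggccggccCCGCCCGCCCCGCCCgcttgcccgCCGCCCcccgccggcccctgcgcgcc
Kmt2d: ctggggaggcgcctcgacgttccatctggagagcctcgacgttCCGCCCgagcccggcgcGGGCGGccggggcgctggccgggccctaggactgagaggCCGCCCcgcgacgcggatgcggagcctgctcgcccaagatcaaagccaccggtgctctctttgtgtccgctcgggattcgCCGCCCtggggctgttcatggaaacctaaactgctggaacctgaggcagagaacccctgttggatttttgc

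The letters CACGTG, which read the same on both strands, occurred in 0 of the 5 windows and in 6.0% of all 32851 windows of this length. GGGCGG or CCGCCC occurred in 4 of the 5, with 12 occurrences in Kmt2c, some of them overlapping, 4 each in Kmt2a and Kmt2d and 1 in Kdm5b, and in 32.7% of all windows. Setd1a had none. The share of G and C in the 5 windows ranged from 54.4% in Kdm5b to 91.6% in Kmt2c. These windows held 13 (Kdm5b) to 48 (Kmt2c) CG dinucleotides, against a median of 6 over all windows. A match or its absence describes these letters in this window and not the binding of a factor.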

How the data were processed

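RNA-seq was made by Smart-seq2 from 68 samples grouped by their labels. The authors trimmed reads (Cutadapt 1.16 in the submitters' processing notes), mapped them to mm10 with HISAT2 and quantified genes with StringTie. The authors deposited for each library a gene table with coverage signal, FPKM and TPM columns. The TPM signal deposited in it covers both loci assembled in that library, which sum to 1000000, and reference genes. The deposited FPKM and coverage were used only for aligned gigabases. Reference rows of a gene were summed.

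Fits used limma 3.58.1 (trend) in R 4.3.3 on log2(TPM + 1) for genes with a mean of at least 1 TPM: 9 SCNT groups, these with CC, or 6 MO groups. Figures and summaries used Python 3.11.15. The fit was checked on simulated data. Transcript lengths came from GENCODE vM21 (95.7% of genes matched), and the length trend was a lowess curve of span 0.3.

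The 10 genes, the pathway list and the marker lists were chosen with earlier results of these data known. All 10 genes are named, with at most the 4 largest called changes of the pathway list per comparison and at most the 3 most similar genes of a tested member. Dpy30 after Max MO and Ash2l at 4C are named besides. Tests for counts were not used because the tables hold no counts. The highest correlation between 2 libraries was 0.989, and none were identical. Same-numbered libraries deviated together in all 6 pairs (r over 0.1) only for 14 against 6 hpa (r = 0.155 to 0.393) and SCNT ICM against TE (0.124 to 0.283). For 1 library at 4C the label (replicate 5) was followed where its table carries another number.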

Additional observations from a re-analysis of the deposited data

How the results depend on the processing

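Alternatives were run on the number of members called in each comparison. Of 205 alternative counts 157 were within 1.5 times the count reported and 48 were not. Of 449 alternative values of the 41 called changes 381 stayed past the threshold, 68 kept their direction without passing it and 0 reversed, and 16 of the 41 passed in every alternative run. With a pseudocount of 0.1 the count was 4 for morula against 8C, 3 for ICM against morula and 0 for control ICM against TE. Without the filter on low values it was 1, 2 and 0 in these comparisons and 2 for TE against morula. With a mean of at least 5 TPM it was 1 for 14 against 6 hpa, 4C against L2C and 8C against 4C. Quantile normalization gave 5 for 14 against 6 hpa, 4 for 4C against L2C, 1 for morula against 8C, 3 for ICM against morula and 1 for Max MO in TE, and TPM rescaled over reference genes gave 1 for morula against 8C, 3 for ICM against morula and 2 for TE against morula. Replicates 1 to 3 alone gave 1 for E2C against 14 hpa, 8C against 4C and morula against 8C and 3 for ICM against morula. Replicates 4 to 6 alone gave 1 for 14 against 6 hpa, 5 for 4C against L2C and morula against 8C, 3 for ICM against morula, 2 for TE against morula and 0 for ICM against TE. With ICM replicates 4 to 6 only, an alternative added after seeing the data, the count was 0 for ICM against TE and 1 for ICM against CC. With only the 6 libraries of a lineage in the fit it was 4 for Max MO in ICM, 4 for Max MO in TE and 0 for Mcrs1 MO in ICM. The cause of these shifts was not tested, except that fits on 1 set of replicates or on 1 lineage hold fewer libraries and the stricter filter tests fewer genes.

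With the replicate number as a block the count was 4 for ICM against CC and 0 for control ICM against TE (r = 0.121 between same-numbered libraries, only 2 pairs), and it stayed at 3 for 14 against 6 hpa and 1 for SCNT ICM against TE, the 2 comparisons where the pairing held; elsewhere it moved by no more than 1.5 times.

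Leaving out 1 library at a time gave 0 to 2 calls for Max MO in TE (0 without either control or either Max MO library of TE), 0 to 4 for Mcrs1 MO in ICM (0 without Mcrs1 MO replicate 1, 2 without replicate 2), 0 to 3 for Mcrs1 MO in TE (1 without TE control replicate 1 or 2 or Mcrs1 MO replicate 1, 0 without Mcrs1 MO replicate 2) and 0 to 1 for control ICM against TE (0 without ICM control replicate 2 or TE control replicate 1 or 2). A lone library was then assumed to vary like the other groups. For Kmt2d the change stayed between -2.69 and -2.97 for Max MO in TE, with adjusted p between 0.086 and 0.18.

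Removing the length trend gives a value without a test, so no count of calls was had from it. Each MO group held 2 libraries, and TPM without counts gives no counting error for the genes below 1 TPM.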
